A study of Mus musculus with 6 samples.

Results

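Interferon-stimulated genes (ISGs) are genes whose transcription rises when a cell senses interferon. The set described here is a list of 42 mouse ISGs taken by symbol, of which 41 are among the 32227 genes in the count files and 1, Mx1, is absent from them. Interferons bind receptors at the cell surface that activate Janus kinases, and the kinases phosphorylate STAT proteins. Complexes that hold STAT2 and IRF9 then bind interferon-stimulated response elements near type I ISGs, whose products sense foreign nucleic acid, block viral replication or tune the response itself. In the thymus, interferon made by the epithelium acts on thymocytes late in their maturation, a setting in which T cells carry ISG RNA without infection.

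The study asked how PD-1, the inhibitory receptor encoded by Pdcd1, acts in cytotoxic CD8+ T cells of the thymus, and sequenced single cells with the PIPseq v3 kit, which counts transcripts from their 3′ ends by unique molecular identifiers (UMIs). There were 6 libraries, 1 for each of 3 tissues and both genotypes, so no group has a replicate. Mice of the Pdcd1fl/fl group carried loxP-flanked Pdcd1 without the Cre transgene. Mice of the Pdcd1 cKO group carried the same alleles with E8I CD8-Cre, described as deleting the gene in CD8+ T cells once positive selection is past. Both groups were on the C57BL/6 background, adult and over 8 weeks old, and males and females were used without the sex of a library being given. Thymic and splenic CD8+ T cells each came from 1 untreated mouse per genotype through a CD8a+ T cell isolation kit, and whether thymus and spleen were of the same animal is not given. Tumor libraries came from B16-OVA melanomas, a mouse melanoma line expressing ovalbumin, taken on day 12 and pooled from 3 mice per genotype, with CD8+ cells taken by microbeads after dissociation and removal of dead cells.

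Where a pair of values is given for a tissue, the library labelled Pdcd1fl/fl comes before the library labelled Pdcd1 cKO, and a log2 ratio divides the latter by the former. The filtered cells numbered 1067 and 2635 (thymus), 1478 and 4928 (spleen) and 456 and 561 (tumor). Their UMIs summed to 6389966 and 19143524, 2220981 and 8923997, and 9380835 and 7924590. Median UMIs per cell were 4361 and 5417 (thymus), 1320.5 and 1615 (spleen) and 13809.5 and 9510 (tumor), so that depth differed most between tissues. Levels are in CPM, the UMIs of a gene or list scaled to the same total of UMIs in each library, pooled over its cells, and are not divided by transcript length. Brackets after a level, a share or a log2 ratio hold 95% exact intervals, after a comma where the ratio itself is in brackets (Poisson for levels, Clopper-Pearson for shares of cells, conditional binomial for ratios). These cover counting error only. With 1 library per group, a difference between genotypes and a difference between mice or preparations cannot be told apart, and no test was made. Members were named by a fixed rule on counts and ratios, and any others after their values were seen.

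Pdcd1 RNA went against the labels in thymus and spleen. In the thymus it had 12 and 131 UMIs, or 1.88 and 6.84 CPM. Splenic counts were 1 and 104 UMIs (0.450 and 11.7 CPM). The tumor had 717 and 808 UMIs (76.4 and 102 CPM). Over all filtered cells Pdcd1 was therefore higher with the label Pdcd1 cKO in all 3 tissues. T cell markers in the tumor were higher with that label too, at 2109 and 4246 CPM. There the mix of cells and the Pdcd1 level of T cells cannot be told apart. Reads were counted by gene and not by exon, so RNA from a deleted allele is not separated from intact RNA, and each direction below rests on the labels. The study reports loss of PD-1 by flow cytometry in thymic and tumor CD8+ T cells. It also reports lower binding of an anti-PD-1 antibody to splenic CD8+ T cells of Pdcd1 cKO mice. The counts used here hold no protein measure. Xist, made from an inactive X chromosome, had 0 and 12, 1 and 7, and 5 and 2 UMIs, while Y-linked Ddx3y had 1548 and 5080, 751 and 4060, and 2744 and 2592. All 6 libraries thus had the RNA pattern of male cells. No barcode of a filtered cell was shared between any pair of libraries, and the unfiltered splenic libraries shared 2. Doublets were not called, and values without the deepest 5% of cells are given among the alternatives.

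Marker lists written for the cell types that could be present were summed in each library, in the order thymus, spleen, tumor. The 7 T cell markers summed to 4601 and 4459, 3833 and 5177, and 2109 and 4246 CPM with none at 0, led by Trbc2 except in the spleen labelled Pdcd1fl/fl, where Cd3d led. Immature thymocyte markers, led by Dntt in the thymus and by Dntt, Cd4 or Ptcra elsewhere, stood at 545 and 428 (thymus), 3.15 and 7.62 (spleen) and 17.9 and 2.90 (tumor), with Rag1 and Rag2 at 0 outside the thymus. Mature T cell markers, led by Ccr7 in thymus and tumor and by Klf2 in spleen, came to 519 and 779, 1934 and 1972, and 195 and 72.3 CPM with none at 0. Thus the thymic library labelled Pdcd1 cKO had more mature and less immature marker RNA, beside its higher ISG share. Melanoma markers were 8636 and 4809 CPM in the tumors, led by Dct and Pmel with none at 0, against 4.85 and 4.39, and 2.70 and 3.03 elsewhere, led by Tyr, with Tyrp1 at 0 in 3 of those 4 libraries and Pmel and Dct also at 0 in the spleen labelled Pdcd1fl/fl. Macrophage markers were 320.0 and 613 CPM in the tumors (Lyz2 leading, none at 0) and 5.63 and 6.63, and 3.60 and 11.4 in thymus and spleen, where Cd68 or Lyz2 led and C1qa and C1qc were at 0, as were Csf1r in both Pdcd1fl/fl libraries and C1qb in the thymus labelled Pdcd1 cKO and the spleen labelled Pdcd1fl/fl. Dendritic cell markers, led by Cd74 in most libraries, by H2-Ab1 in the thymus labelled Pdcd1fl/fl and by Flt3 in the spleen with that label, reached 1126 and 2495 CPM in the tumors and 24.6 and 40.7, and 5.85 and 73.6 elsewhere. Of their defining genes, Clec9a and Siglech were at 0 in thymus and spleen, and Xcr1 in the spleens and the tumor labelled Pdcd1fl/fl. B cell markers were 189 and 2053 CPM in the spleen, where Igkc had 13539 UMIs in the library labelled Pdcd1 cKO. With the other label Ighm led. Elsewhere that list stood at 152 and 105, and 32.8 and 152, with Ighm leading and Ms4a1 at 0 in the thymus and spleen labelled Pdcd1fl/fl and the tumor labelled Pdcd1 cKO. Granulocyte markers were 0.313 and 0.575, 1.80 and 68.5, and 2.88 and 2.27 CPM, led by Mpo or Prtn3, with S100a8 at 0 in thymus and spleen, S100a9 also at 0 there except in the thymus labelled Pdcd1 cKO, Elane at 0 in both thymuses and the spleen labelled Pdcd1fl/fl, Prtn3 at 0 in the thymus labelled Pdcd1fl/fl, and Mpo at 0 in the spleen labelled Pdcd1fl/fl and the tumor labelled Pdcd1 cKO. Erythroid markers, led by Hbb-bs or Hba-a2, were 0.313 and 10.1, 0.901 and 29.2, and 1.39 and 0.631, with Hba-a1 at 0 in the thymus and spleen labelled Pdcd1fl/fl, Hba-a2 in that thymus, and Hbb-bt in that spleen and both tumors. Connective tissue markers were 68.5 and 22.3, 0.450 and 8.29, and 143 and 21.5, led by Dcn in the thymus, Col3a1 in the spleen and Col1a1 or Aebp1 in the tumor, with all but Col3a1 at 0 in the spleen labelled Pdcd1fl/fl and Rarres2 at 0 in the tumor labelled Pdcd1 cKO. NK and innate-like T cell markers, led by Trdc or in the tumor by Zbtb16, were 179 and 152, 9.91 and 15.1, and 2.35 and 6.81, with Ncr1 at 0 in the thymus and spleen labelled Pdcd1fl/fl. The part of any of these cells in the ISG differences was not tested, except where a value without them is given.

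The ISGs together took a larger share of the UMIs in the library labelled Pdcd1 cKO in each of the 3 tissues. In the spleen the rest of the genes also leaned the same way, and the order of the tissues was not tested. In thymic cells the 41 genes had 4848 and 23745 UMIs, or 0.0759% and 0.124% of all UMIs, which is 759 and 1240.4 CPM. The log2 ratio was 0.71 (0.66 to 0.75). Splenic cells had 1038 and 1363 CPM, a log2 ratio of 0.39 (0.33 to 0.46). Tumor cells had 2355 and 3248 CPM, a log2 ratio of 0.46 (0.44 to 0.49). The tumor held the highest ISG shares of both labels and the thymus labelled Pdcd1fl/fl the lowest. In cells with at least 1 UMI of Cd8a or Cd8b1 the levels were 850.4 and 1415 CPM (thymus), 1041 and 1365 CPM (spleen) and 1961 and 2909 CPM (tumor), with log2 ratios of 0.73, 0.39, and 0.57. At least 2-fold higher in such cells were 12 of 40 members in the thymus, against 6.46% of all genes, 9 of 37 in the spleen, against 10.8%, and 12 of 40 in the tumor, against 7.24%, and 0 were 2-fold lower, against 6.56%, 2.89% and 9.99%. The scale was also set so that the median ratio of well-counted genes was 0, which moved the ratios by the size of that median, -0.07 (thymus), 0.17 (spleen) and -0.22 (tumor). Relative to that median the ISG log2 ratios were 0.78, 0.22, and 0.69, so the direction held in each tissue while the splenic difference shrank and the tumor difference grew.

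**Figure D1:**
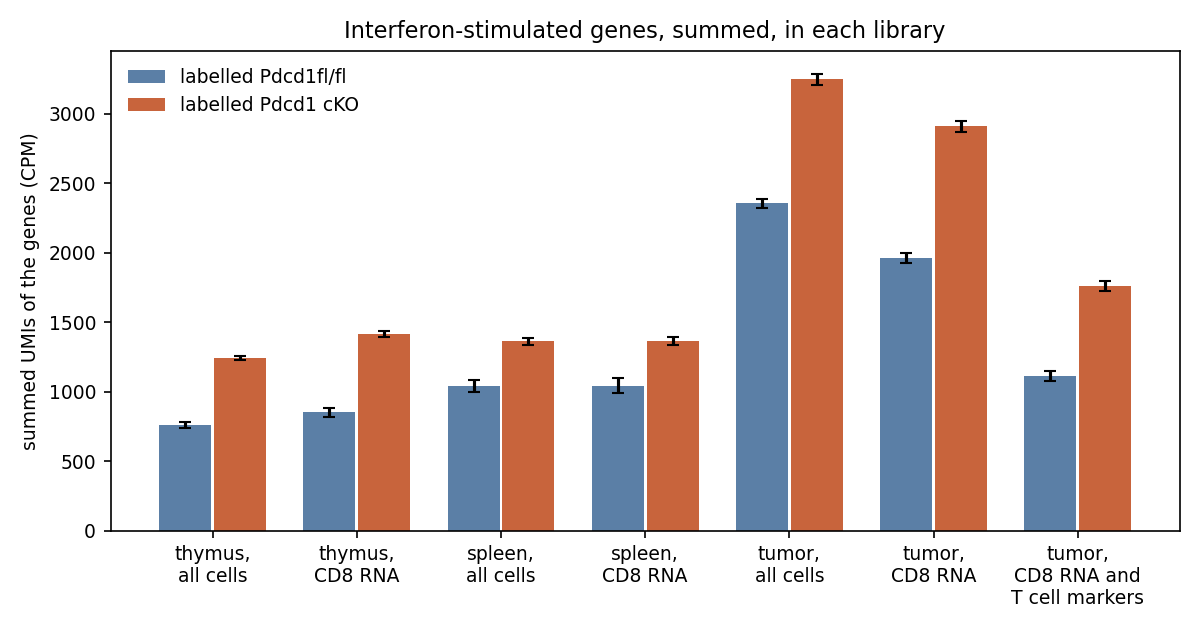
Summed level of the 41 interferon-stimulated genes (y axis, CPM) in each library for the cell sets named on the x axis, with bars coloured by label and error bars giving 95% Poisson intervals for counting error. The bar of the library labelled Pdcd1 cKO is the taller in every pair, as in all thymic cells at 759 and 1240.4 CPM.

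In the thymus nearly every measured ISG was higher with the label Pdcd1 cKO. Of 40 members with at least 20 UMIs over both libraries, 38 were higher and 2, Xaf1 and Stat2, were lower, while 48.4% of 14381 genes of any kind were higher. At least 2-fold higher were 12 of the 40 (30%), against 8.75% of all genes, and 0 were 2-fold lower, against 5.33%. The share of members past 2-fold was thus above that of all genes upward and below it downward. The median member stood at 0.75 and the median gene at -0.02 on the log2 scale. When ribosomal, mitochondrial and Malat1 UMIs were left out of the total or the median gene set the scale, Stat2 changed sign and 39 members were higher.

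Signalling factors of the thymus differed least, at 48.5 and 62.4 CPM summed over 4 genes and a log2 ratio of 0.36 (0.18 to 0.55). Irf7, the factor that amplifies interferon genes, had 61 and 247 UMIs (9.55 and 12.9 CPM), and its log2 ratio was 0.43 (0.03 to 0.86). Stat2, a subunit of the factor that binds type I response elements, had 18.5 and 18.4 CPM, and its log2 ratio of -0.01 (-0.31 to 0.31) has an interval that includes 0. Irf9, its DNA-binding partner, had 18.5 and 27.1 CPM, higher in the library labelled Pdcd1 cKO at 0.55 (0.26 to 0.85). Usp18 removes ISG15 from proteins and damps the receptor, and it had few counts, 13 and 76 UMIs, with a log2 ratio of 0.96 (0.11 to 1.94). Sensors of nucleic acid summed to 28.0 and 48.9 CPM, a log2 ratio of 0.81 (0.57 to 1.04), most of it Zbp1, a sensor of left-handed nucleic acid that can trigger cell death, at 16.4 and 30.5 CPM.

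Of the 5 highest thymic ratios 4 were of IFIT and OAS genes, from few UMIs. The IFIT family, which binds viral RNA, rose from 8.14 to 23.6 CPM, a log2 ratio of 1.53 (1.12 to 1.98). Ifit3b had 3 and 47 UMIs and the highest ratio among thymic members, 2.39 (0.75 to 4.72), with a wide interval. Ifit3 had 16 and 167 UMIs and a log2 ratio of 1.80 (1.06 to 2.64). For Ifit1 the counts were 23 and 190 UMIs and the ratio 1.46 (0.84 to 2.16). All 4 IFIT genes were higher with the label Pdcd1 cKO. The OAS family, which senses double-stranded RNA, summed to 8.61 and 17.1 CPM (0.99, 0.57 to 1.43), and Oasl1, which restrains translation of Irf7, had 9 and 86 UMIs with a log2 ratio of 1.67 (0.68 to 2.85).

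Among the 13 other effectors, which held most ISG UMIs, levels were 463 and 724 CPM and the log2 ratio was 0.64 (0.59 to 0.70). Ifi27l2a, a small hydrophobic membrane protein, rose from 62.1 to 181 CPM (397 and 3462 UMIs), a log2 ratio of 1.54 (1.39 to 1.69). Bst2, or tetherin, holds budding virus at the cell surface, and it was plentiful and differed little, at 154 and 185 CPM and 0.27 (0.17 to 0.37). Thus the pair of members with most thymic UMIs differed by unlike amounts. Isg15, a ubiquitin-like modifier, stood at 21.6 and 39.3 CPM, a log2 ratio of 0.87 (0.60 to 1.14). Epsti1, named for an epithelial-stromal interaction, was at 54.5 and 87.7 CPM (0.69, 0.52 to 0.86). Trim30a, a TRIM protein that restrains Toll-like receptor signalling, was at 59.5 and 80.4 CPM (0.43, 0.27 to 0.60). Each of these was higher with the label Pdcd1 cKO. Xaf1, which binds an inhibitor of apoptosis, went the other way at 37.1 and 28.2 CPM and -0.39 (-0.62 to -0.17), the lowest ratio of the thymic members, though in cells with CD8 RNA its interval includes 0 (-0.13, -0.43 to 0.19) and its sign changed with the scaling. Lgals3bp, a secreted galectin-binding glycoprotein, was at 25.5 and 30.0 CPM, and its interval of 0.24 (-0.02 to 0.50) includes 0. The 8 members with most UMIs, Bst2, Ifi27l2a, Epsti1, Trim30a, Ifi203, Ifi47, Isg15 and Xaf1, held 60.6% of the thymic ISG UMIs, and without Bst2 the summed log2 ratio was 0.80.

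The remaining thymic families were all higher in the library labelled Pdcd1 cKO under each scaling. The PARP and DTX3L group, enzymes that attach ADP-ribose or ubiquitin, had 52.9 and 78.9 CPM (0.58, 0.41 to 0.75). Schlafen genes, linked to T cell quiescence, summed to 18.6 and 36.8 CPM (0.98, 0.70 to 1.27), and Slfn5 was their least changed at 5.01 and 5.96 CPM and 0.25 (-0.33 to 0.86). The p200 family, nuclear proteins that bind DNA, rose from 69.2 to 139 CPM (1.00, 0.86 to 1.15), with Ifi203 at 36.8 and 79.3 CPM. Interferon-inducible GTPases, which act on vacuoles that hold pathogens, had 61.7 and 110.3 CPM (0.84, 0.68 to 1.00), led by Ifi47 at 36.9 and 69.9 CPM.

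Splenic ISGs leaned the same way as thymic ones, by less, in libraries of shallower cells. Of 39 members with at least 20 UMIs, 36 were higher with the label Pdcd1 cKO, beside 63.3% of 12272 genes. Past 2-fold upward were 8 (20.5%), against 9.18% of all genes, and past 2-fold downward 0, against 2.83%. The median member was at 0.43 and the median gene at 0.17. Relative to the median of ratios 30 of the 39 were higher, and 32 when ribosomal, mitochondrial and Malat1 UMIs were left out of the total. Irf9, Oasl2, Xaf1, Slfn8, Ifi209 and Gbp2 changed sign with the scaling.

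Among the splenic signalling factors (77.4 and 98.4 CPM, 0.35 (0.11 to 0.59)), Usp18 differed most, with 6 and 95 UMIs and a log2 ratio of 1.98 (0.80 to 3.46). Stat2 was level at 18.5 and 18.4 CPM (-0.01, -0.51 to 0.52). Sensors had 27.9 and 54.6 CPM (0.97, 0.58 to 1.37), the highest group ratio of the spleen over all filtered cells. In cells with CD8 RNA they were at 0.73, below the IFIT genes at 1.19 and the Schlafen genes at 1.11. Over all filtered cells Ifih1, the sensor of long double-stranded RNA, had 13 and 137 UMIs with a log2 ratio of 1.39 (0.57 to 2.34). The IFIT genes had 18.9 and 34.7 CPM (0.88, 0.41 to 1.38), and Ifit1 had 10 and 96 UMIs (1.26, 0.32 to 2.36). The OAS genes, at 10.8 and 15.6 CPM, had an interval that includes 0, 0.53 (-0.10 to 1.22), and Oasl2 within them was level at 7.20 and 7.51 CPM (0.06, -0.74 to 0.95).

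The other effectors of the spleen had 582 and 733 CPM, a log2 ratio of 0.33 (0.25 to 0.42). Isg15 was the clearest of them, at 52 and 467 UMIs, 23.4 and 52.3 CPM and a log2 ratio of 1.16 (0.74 to 1.60). Rsad2, which makes a nucleotide that stops viral polymerases, had 1 and 20 UMIs, and its ratio of 2.32 (-0.33 to 7.69) has an interval that includes 0. Epsti1 had the most splenic UMIs and was at 202 and 239 CPM (0.24, 0.09 to 0.39). These were higher with the label Pdcd1 cKO, by unlike amounts. Bst2 was at 78.3 and 105 CPM (0.43, 0.19 to 0.67) and Ifi27l2a at 50.4 and 74.0 CPM (0.55, 0.26 to 0.85), both higher with that label. Trim30a, at 109 and 108 CPM (-0.01, -0.22 to 0.20), and Samd9l, which restricts viral translation, at 25.7 and 24.9 CPM (-0.04, -0.47 to 0.40), were level. Schlafen genes had 23.0 and 39.7 CPM (0.79, 0.36 to 1.24), and Slfn1 within them had 22 and 218 UMIs and a log2 ratio of 1.30 (0.67 to 2.01). The p200 genes had 155 and 210.3 CPM (0.44, 0.27 to 0.61), with Ifi203 at 72.5 and 97.8 CPM and Ifi206 at 26.1 and 47.2 CPM. GTPases had 92.8 and 115 CPM (0.30, 0.09 to 0.53), with Ifi47 at 55.8 and 74.4 CPM, and Gbp2 was level at 21.6 and 21.7 CPM (0.01, -0.45 to 0.50). The PARP and DTX3L group had 50.4 and 61.7 CPM with an interval that reaches 0, 0.29 (-0.00 to 0.60). The 8 members with most UMIs, Epsti1, Trim30a, Bst2, Ifi203, Ifi47, Ifi27l2a, Isg15 and Ifi206, held 58.7% of the ISG UMIs. With cells carrying a UMI of Igkc, Ighm, Elane, Mpo or Prtn3 left out, a set chosen after the data were seen that took out 290 of 1478 and 3254 of 4928 cells, the summed log2 ratio was 0.40.

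Tumor libraries differed in the mix of cells as well as in label, so ISGs are given for all cells and then by class. Over all filtered cells, 29 of 41 members were higher with the label Pdcd1 cKO, while 35.4% of 14087 genes were. Past 2-fold upward were 11 (26.8%), against 6.78% of all genes, and past 2-fold downward 0, against 11%. The median member was at 0.41 and the median gene at -0.21. Relative to the median of ratios 39 members were higher. Stat2, Ifit1, Ifit3, Ifit3b, Rsad2, Bst2, Ifi44, Trim30a, Lgals3bp and Dtx3l changed sign with the scaling. Bst2 alone held so many UMIs, 8203 and 6673, that without it the summed log2 ratio rose from 0.46 to 0.70.

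Effectors with most UMIs in the tumors differed in direction. Bst2 was at 874 and 842 CPM, a log2 ratio of -0.05 (-0.10 to -0.01). Ifi27l2a rose from 281 to 634 CPM, a log2 ratio of 1.17 (1.10 to 1.24). Isg15 was at 226 and 300.2 CPM (0.41, 0.33 to 0.50). The first was slightly lower with the label Pdcd1 cKO, a sign that turned with the scaling, and the others were higher. Lgals3bp was level, at 80.2 and 80.1 CPM. Isg20, an exonuclease that degrades viral RNA, had 96 and 235 UMIs and 1.53 (1.19 to 1.89), and Phf11b, a PHD finger protein, had 159 and 375 UMIs and 1.48 (1.21 to 1.76). Xaf1, lower in the thymus, was here higher at 44.9 and 79.1 CPM (0.82, 0.64 to 1.00). All 13 other effectors summed to 1694 and 2199 CPM (0.38, 0.35 to 0.41).

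Over all filtered tumor cells the p200 genes had the highest group ratio, from 18.7 to 50.2 CPM (1.43, 1.17 to 1.69). Ifi209 had 18 and 78 UMIs and 2.36 (1.61 to 3.19), the highest of all tumor members. Ifi206 had 27 and 91 UMIs (2.00, 1.36 to 2.67) and Ifi213 16 and 43 (1.67, 0.81 to 2.60). All 4 p200 genes were higher with the label Pdcd1 cKO. GTPases had 206 and 377 CPM (0.87, 0.79 to 0.95), with Irgm1 at 68.1 and 118, Gbp2 at 60.3 and 108 and Igtp at 50.1 and 93.9 CPM, each higher with that label. Sensors had 129.7 and 251 CPM (0.95, 0.85 to 1.05), of which Zbp1 made up 117 and 234 CPM. Schlafen genes had few UMIs, 6.61 and 11.4 CPM (0.78, 0.30 to 1.27). Signalling factors had 101 and 143 CPM (0.50, 0.37 to 0.63), Irf7 the higher at 34.9 and 85.6 CPM and Usp18 the lower at 38.9 and 28.5 CPM (-0.45, -0.69 to -0.20), though not within the classes below (3.10 and 5.66 CPM in the T class and 66.4 and 75.2 in the melanoma class). The IFIT genes were at 74.5 and 69.9 CPM, a log2 ratio of -0.09 (-0.26 to 0.07) that turned to 0.13 relative to the median of ratios. Within them Ifit3b was at 11.7 and 10.1 CPM (-0.22, -0.65 to 0.21) and Ifit1 at 25.2 and 23.1 (-0.12, -0.41 to 0.16), so neither differed beyond counting error. Neither did Stat2 (-0.19, -0.66 to 0.27) or Parp14, an ADP-ribosyltransferase (-0.23, -0.68 to 0.21). OAS genes had 85.6 and 107 CPM (0.32, 0.18 to 0.46) and the PARP and DTX3L group 38.9 and 40.1 (0.04, -0.18 to 0.27), the latter level. The 8 members with most UMIs, Bst2, Ifi27l2a, Isg15, Zbp1, Irgm1, Gbp2, Lgals3bp and Igtp, held 74.4% of the ISG UMIs.

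**Figure D2:**
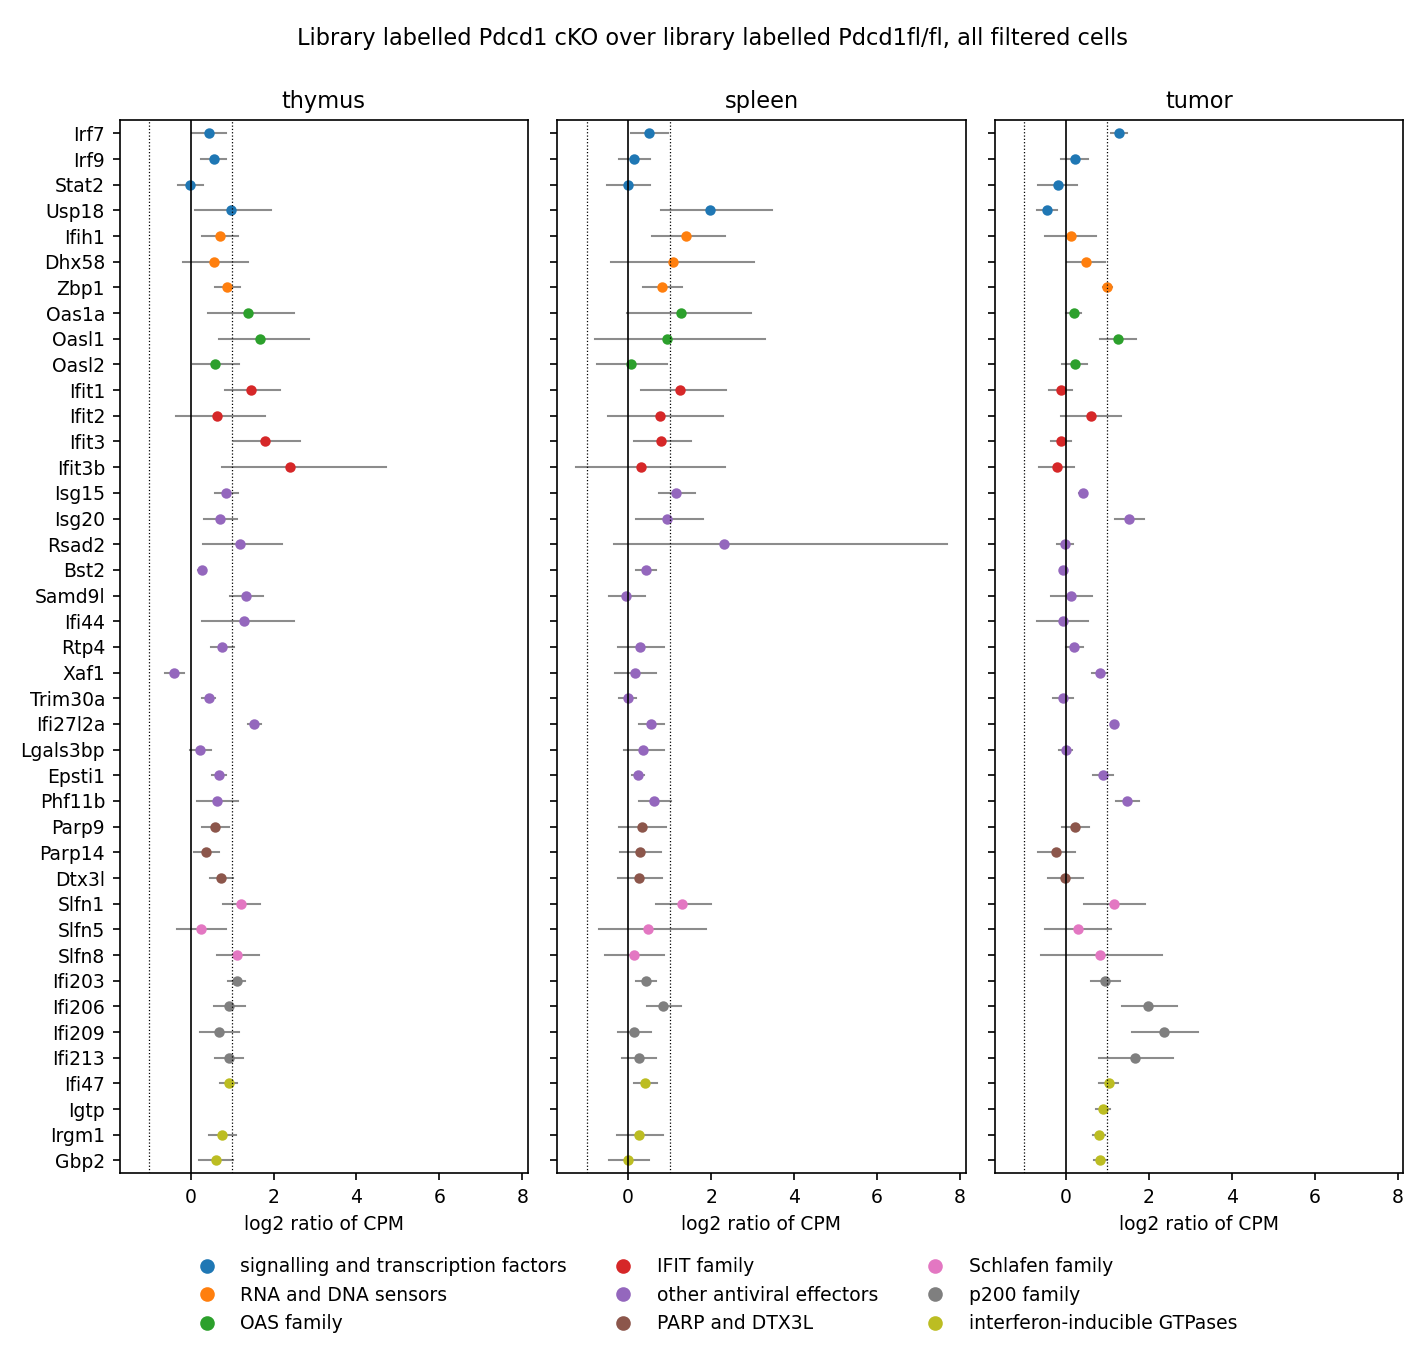
Log2 ratio (x axis, label Pdcd1 cKO over label Pdcd1fl/fl, all filtered cells) of each of the 41 members (y axis) in thymus, spleen and tumor, coloured by role, with 95% exact intervals and dotted lines at 2-fold; members under 20 UMIs are not drawn. Most points lie right of 0, with Ifi27l2a at 1.54, 0.55, and 1.17, while the tumor IFIT genes Ifit1, Ifit3 and Ifit3b lie left of 0 and move to its right relative to the median of ratios.

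Each tumor cell was put in a class by whether its UMIs of T cell, macrophage or melanoma markers were the most. The T class held 290 and 472 cells (median 11034.5 and 9111 UMIs), the melanoma class 144 and 58 (median 31356 and 35962.5) and the macrophage class 22 and 31 (median 8746 and 6906). ISG levels were lowest in the T class, at 1151 and 1822 CPM, a log2 ratio of 0.66 (0.61 to 0.71). The melanoma class had 3076 and 5623 CPM (0.87, 0.84 to 0.90). The macrophage class had 6362 and 9517 CPM (0.58, 0.49 to 0.67), from few cells. ISGs were therefore higher with the label Pdcd1 cKO in each class. The melanoma class gave 73.9% and 49.9% of all tumor ISG UMIs, so the values over all filtered cells rest in large part on that class. CD8 RNA was read in 66 of its 144 and 37 of its 58 cells, and since doublets were not called, melanoma cells and CD8+ cells read with melanoma RNA cannot be told apart. Members differed in where they were read. The melanoma class held 86.9% and 72.0% of the Bst2 UMIs, and the T class 77.0% and 83.4% of those of Ifi27l2a. Isg15 stood at 43.7 and 72.8 CPM in the T class, 349 and 616 in the melanoma class and 462 and 1727 in the macrophage class, rising with the label in each. Irgm1 and Gbp2 had 90.3% and 84.8%, and 79.0% and 74.5% of their UMIs in the melanoma class. Ifi209 had 61.1% and 60.3% of its UMIs in the T class.

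T-class cells with CD8 RNA (276 and 458 cells) are the tumor cells used beside those of thymus and spleen, and dendritic cell markers were not used to sort them. Their ISGs summed to 1113 and 1762 CPM, a log2 ratio of 0.66 (0.61 to 0.72). Of 34 measured members 33 were higher with the label Pdcd1 cKO, beside 58.1% of 10653 genes. Past 2-fold were 10 upward (29.4%), against 9.5% of all genes, and 0 downward, against 4.36%. Parp14 and Ifi213 changed sign with the scaling. Xaf1 had 39 and 259 UMIs and the highest ratio, 2.25 (1.76 to 2.78). Oas1a, an enzyme whose product activates RNase L, had 17 and 110 UMIs (2.21, 1.47 to 3.04). Ifit1 had 4 and 23 UMIs (2.04, 0.49 to 4.03), and Isg20 24 and 128 (1.93, 1.30 to 2.63). In these cells, unlike over all tumor cells, the IFIT sum was higher with the label Pdcd1 cKO, at 2.97 and 8.89 CPM (1.58, 0.61 to 2.68). The p200 sum, with the highest group ratio over all tumor cells, was at 0.67 here, and the OAS genes had the highest, 1.88. Within the p200 genes Ifi209 was at 2.70 and 7.73 CPM (1.52, 0.49 to 2.68). Zbp1 rose from 48.5 to 111 CPM (1.20, 0.96 to 1.45) and Ifi27l2a from 501 to 751 (0.59, 0.51 to 0.67). Bst2, slightly lower over all tumor cells, was higher here at 225 and 288 CPM (0.35, 0.23 to 0.48). The lowest ratios were those of Dhx58, a regulator of RNA sensing, at -0.07 (-1.24 to 1.15), Ifi213 at 0.10 (-1.31 to 1.60), Parp14 at 0.10 (-0.76 to 1.00), Dtx3l at 0.14 (-0.61 to 0.91) and Trim30a at 0.31 (-0.14 to 0.77), and none of these differed beyond counting error. The 8 with most UMIs, Ifi27l2a, Bst2, Zbp1, Isg15, Epsti1, Phf11b, Xaf1 and Lgals3bp, held 81.7% of the ISG UMIs.

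Across tissues, 39 members were measured in all 3, and 26 of them were higher with the label Pdcd1 cKO in each. Another 11 were higher in 2 of the tissues, Trim30a in 1 and Stat2 in 0. For 11 members the interval lay above 0 in all 3 tissues, namely Irf7, Zbp1, Isg15, Isg20, Ifi27l2a, Epsti1, Phf11b, Slfn1, Ifi203, Ifi206 and Ifi47, while 11.2% of 11302 genes were higher in all 3 and 2.26% had such intervals. In cells with CD8 RNA the interval includes 0 for Irf7 in the thymus (0.32, -0.15 to 0.82) and for Zbp1 in the spleen (0.48, -0.03 to 1.02), and in T-class cells of the tumor with CD8 RNA for Slfn1 (0.76, -0.19 to 1.77) and Ifi206 (0.60, -0.25 to 1.49). The splenic low ends of Irf7 (0.08), Epsti1 (0.09) and Ifi47 (0.14) are under the median of ratios there, 0.17. The tissues were prepared separately, and whether the ratios differ between tissues was not tested.

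Thymic cells were split by Dntt, made in immature thymocytes, by CD8 RNA (Cd8a or Cd8b1) and by Ccr7, gained as thymocytes mature, each as 0 or at least 1 UMI. Over all cells of a library, ISG levels were lower with Dntt and higher with CD8 or Ccr7 RNA in both libraries, though not for CD8 and Ccr7 in every class (below). With Dntt they were 637 CPM and without it 1221 CPM in the library labelled Pdcd1fl/fl, a log2 ratio of -0.94 (-1.02 to -0.85), and 965 and 1823 CPM with the label Pdcd1 cKO, -0.92 (-0.95 to -0.88). CD8 RNA went with 850.4 against 636 CPM (0.42, 0.33 to 0.50) and with 1415 against 899.8 CPM (0.65, 0.61 to 0.70). For Ccr7 the values were 932 against 648 CPM (0.53, 0.44 to 0.61) and 1614 against 917 CPM (0.82, 0.78 to 0.85). Cells with Dntt were deeper, with medians of 5364 and 6150 UMIs against 3475 and 4750, and a cell of few UMIs is more often at 0 for a marker it expresses.

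The markers in combination give 8 classes. Cells with CD8 and Ccr7 RNA and no Dntt, called mature here, made up 15% and 26.8% of cells (160 and 706, median 3534.5 and 5335.5 UMIs). Cells with Dntt and CD8 but no Ccr7, called immature, numbered 213 and 411 (median 6503 and 6293 UMIs). In the library labelled Pdcd1fl/fl the immature class had 542 and the mature class 1470.4 ISG CPM, a log2 ratio of 1.44 (1.31 to 1.57). The library labelled Pdcd1 cKO had 732 and 2047 CPM, 1.48 (1.42 to 1.54). The mature class was the highest of the 8 in both libraries. Among cells with Dntt, the class with CD8 but no Ccr7 and the class with Ccr7 but no CD8 (537 and 808 CPM) were below the class with neither (642 and 880.5 CPM), against the direction over all cells. With classes drawn from cells thinned to 1000 UMIs, to equal depth, the log2 ratios were 1.03 and 1.04, smaller and of the same direction. Between the libraries, ISGs were higher with the label Pdcd1 cKO within each class, with log2 ratios from 0.13 (-0.18 to 0.46) in the class with Ccr7 alone, where the interval includes 0, to 0.81 (0.71 to 0.92) in the class with all 3 markers. The mature class was at 0.48 (0.38 to 0.58) and the immature class at 0.43 (0.32 to 0.55). Weighting the 8 classes of both libraries by their UMIs in the library labelled Pdcd1fl/fl, an alternative chosen after the data were seen, gave 0.54 in place of 0.71.

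**Figure D3:**
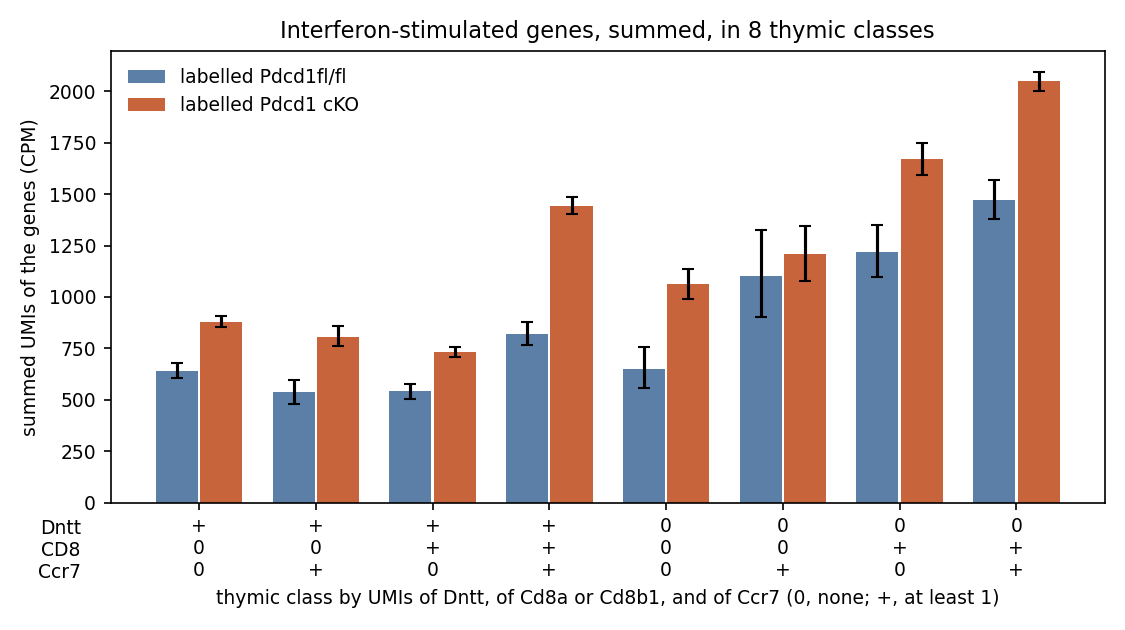
Summed ISG level (y axis, CPM) in the 8 thymic classes by Dntt, CD8 and Ccr7 RNA (x axis), with bars coloured by label and error bars giving 95% Poisson intervals. The class with CD8 and Ccr7 but no Dntt is the highest of each library, at 1470.4 and 2047 CPM.

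Single members followed the sum. Mature over immature, 24 of 26 measured members were higher in the library labelled Pdcd1fl/fl, where 50.6% of all 8269 genes were, and 38 of 38 in the other, where 38.6% of 11283 genes were. At least 2-fold higher were 18 with the label Pdcd1fl/fl, against 15.9% of all genes, and 28 with the label Pdcd1 cKO, against 8.99%. Lower by 2-fold were 0 members, beside 15.8% and 19.3% of genes. Of the 26 members measured in both libraries 24 were higher in the mature class in both, and 18 were 2-fold higher in both. For Bst2 and Lgals3bp the intervals of both libraries include 0, and Bst2 changed sign with the scaling in the library labelled Pdcd1fl/fl. Relative to the median of ratios, itself at -0.17 and -0.24, the summed log2 ratios were 1.61 and 1.72. Most ISG UMIs were of Bst2, Ifi27l2a, Trim30a, Epsti1, Ifi203, Ifi47, Xaf1 and Irf9 (60.5%) with the label Pdcd1fl/fl and of Ifi27l2a, Bst2, Epsti1, Trim30a, Ifi203, Ifi47, Rtp4 and Isg15 (61.7%) with the other.

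Slfn1 had the highest ratio with the label Pdcd1fl/fl and, after Ifit3b, the next highest with the other, from 1.27 to 33.7 CPM (2 and 22 UMIs, 4.73 (2.71 to 7.86)) with the label Pdcd1fl/fl and from 3.98 to 42 CPM (3.40, 2.68 to 4.21) with the other. Ifi27l2a went from 22.8 to 199 CPM (3.12, 2.58 to 3.70) and from 56.4 to 447 CPM (2.99, 2.79 to 3.19). Ifi206, of the p200 family, went from 3.17 to 50.5 CPM (3.99, 2.63 to 5.71) and from 6.79 to 50.2 CPM (2.89, 2.32 to 3.50). These were low in immature and high in mature cells of both libraries. Rtp4, an antiviral protein also known as a receptor chaperone, was at 8.24 and 52.0 CPM with the label Pdcd1fl/fl (2.66, 1.70 to 3.70), and Parp14 at 7.60 and 41.3 (2.44, 1.41 to 3.56). With the label Pdcd1 cKO, Ifit3b had 2 and 22 UMIs (3.55, 1.52 to 6.68), Ifit1 12 and 97 (3.10, 2.23 to 4.10) and Ifi209 15 and 119 (3.08, 2.30 to 3.96). Bst2 barely changed, at 140.0 and 136 CPM (-0.04, -0.41 to 0.32) and 165 and 176 CPM (0.09, -0.06 to 0.24). Lgals3bp was at 17.7 and 12.2 CPM (-0.54, -1.88 to 0.64) and 27.6 and 27.8 CPM (0.01, -0.37 to 0.40). The next lowest ratios were those of Xaf1 (0.36, -0.39 to 1.07), Ifi47 (0.66, -0.06 to 1.35) and Trim30a (0.86, 0.38 to 1.32) with the label Pdcd1fl/fl, and of Dtx3l (0.51, 0.14 to 0.88), Ifih1 (0.52, -0.06 to 1.10) and Trim30a (0.61, 0.39 to 0.83) with the label Pdcd1 cKO.

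All 9 role groups were higher in the mature class of both libraries under each scaling. Schlafen genes rose most with the label Pdcd1fl/fl, from 5.70 to 55.1 CPM (3.27, 2.19 to 4.51), and reached 2.02 (1.65 to 2.40) with the other. IFIT genes had log2 ratios of 2.97 (1.28 to 5.05) and 2.70 (2.16 to 3.28), and p200 genes 2.42 (1.99 to 2.87) and 1.98 (1.79 to 2.18). The smallest ratios were those of GTPases (1.10, 0.60 to 1.61) with the label Pdcd1fl/fl and of the PARP and DTX3L group (0.87, 0.63 to 1.11) with the label Pdcd1 cKO.

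Within the mature class most members were higher with the label Pdcd1 cKO while most genes were lower. Of 37 measured, 27 were higher, beside 26.2% of 9693 genes, and 10 were at least 2-fold higher, against 4.19% of all genes, with 0 lower, against 11.6%. The median gene was at -0.36 here, and relative to the median of ratios (-0.36) 36 members were higher. Irf9, Stat2, Usp18, Xaf1, Trim30a, Parp9, Parp14, Slfn5 and Ifi206 changed sign with the scaling. Ifi47 had 30 and 519 UMIs, 45.9 and 129 CPM and 1.49 (0.96 to 2.07). Ifi27l2a was at 199 and 447 CPM (1.17, 0.91 to 1.44), and Ifit1 at 7.65 and 24.1 (1.66, 0.38 to 3.31). These were high with the label Pdcd1 cKO. Oasl2 had 2 and 49 UMIs (1.99, 0.06 to 5.08) and Ifit3b 1 and 22 (1.84, -0.79 to 7.20). Irf7, by contrast, was at 29.1 and 22.1 CPM (-0.39, -1.12 to 0.40) and Irf9 at 56.6 and 44.7 (-0.34, -0.86 to 0.21), and with Slfn5, Parp14 and Parp9 they had the lowest ratios, all with intervals that include 0. Members with most UMIs in this class were Ifi27l2a, Bst2, Epsti1, Ifi203, Ifi47, Trim30a, Zbp1 and Ifi213 (61.3%).

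In the immature class 21 of 28 measured members were higher with the label Pdcd1 cKO, beside 46.4% of 10530 genes. At least 2-fold higher were 5, against 6.32% of all genes, and 0 were 2-fold lower, against 4.31%. Slfn8 had 0 and 42 UMIs and was at least 5.17-fold higher, taking 3 UMIs in place of 0. Rtp4 was at 8.24 and 22.9 CPM (1.48, 0.64 to 2.44), Ifi27l2a at 22.8 and 56.4 (1.31, 0.80 to 1.85) and Ifi203 at 22.8 and 48.2 (1.08, 0.56 to 1.63). Ifi206 had 5 and 29 UMIs (1.10, -0.29 to 2.83). Xaf1 was lower, at 31.1 and 20.6 CPM (-0.59, -1.11 to -0.06), and the next lowest, Ifi209, Ifi213, Irf7 and Slfn5, did not differ beyond counting error. Epsti1 and Phf11b changed sign with the scaling. Most of the UMIs were of Bst2, Trim30a, Ifi27l2a, Ifi203, Epsti1, Ifi47, Lgals3bp and Dtx3l (64.0%). Whether the immature cells had undergone deletion was not tested.

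Between tissues, compared within a label and in cells with CD8 RNA, spleen and thymus differed 2-fold, counting both directions, in a smaller share of members than of genes, and the size of the summed difference depended on the scaling. Spleen and thymus differ in depth and preparation, and these cannot be told apart from tissue. Thymic cells had 850.4 and splenic cells 1041 ISG CPM with the label Pdcd1fl/fl, a log2 ratio of 0.29 (0.20 to 0.38), which was 0.44 without Bst2. With the label Pdcd1 cKO they had 1415 and 1365 CPM, -0.05 (-0.09 to -0.02), which turned to 0.15 without Ifi27l2a and to 0.14 in all filtered cells. The median of ratios was -0.43 and -0.03, and relative to it the sums were at 0.72 and -0.02. At least 2-fold higher in the spleen were 6 of 32 members with the label Pdcd1fl/fl, against 8.58% of genes, and 5 of 40 with the other, against 11.6%. At least 2-fold lower were 1 and 2, against 28.2% and 13.4%. Of the 32 measured with both labels 12 were higher in the spleen with both, 12 lower with both and 8 opposite. Most UMIs over thymus and spleen were of Bst2, Epsti1, Trim30a, Ifi27l2a, Ifi203, Ifi47, Xaf1 and Irf9 (60.1%) with the label Pdcd1fl/fl and of Ifi27l2a, Epsti1, Bst2, Ifi203, Trim30a, Ifi47, Isg15 and Zbp1 (59.9%) with the other.

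Phf11b was the member most raised in the spleen with both labels, at 9.30 and 34.0 CPM in thymus and spleen (1.87, 1.20 to 2.55) for Pdcd1fl/fl and 14.3 and 46.6 (1.70, 1.44 to 1.97) for Pdcd1 cKO. Epsti1 was at 71.7 and 206 (1.52, 1.27 to 1.77) and 109 and 242 CPM (1.16, 1.06 to 1.26), and Ifi209 at 11.2 and 26.1 (1.22, 0.53 to 1.90) and 16 and 32.9 (1.04, 0.77 to 1.32). All 3 were high in spleen and low in thymus. Also among the 5 highest were Ifit3 (1.63, 0.41 to 2.87) and Gbp2 (1.10, 0.40 to 1.79) with the label Pdcd1fl/fl. With the other label these were Usp18 (1.11, 0.60 to 1.62) and Irf7 (1.08, 0.80 to 1.36). Bst2 was lower in the spleen with both, at 145 and 85.5 (-0.77, -1.07 to -0.48) and 171 and 105 CPM (-0.71, -0.83 to -0.59). Ifi27l2a fell from 248 to 72.4 CPM with the label Pdcd1 cKO (-1.78, -1.91 to -1.64) and less, from 87.8 to 55.0, with the other (-0.67, -1.05 to -0.31). Ifi44, a cytoplasmic antiviral protein, had 31 and 1 UMIs in thymus and spleen (-4.16, -9.51 to -1.58), Oasl1 60 and 18 (-0.95, -1.79 to -0.17) and Rtp4 497 and 153 (-0.91, -1.18 to -0.65) with the label Pdcd1 cKO. Slfn5 with 24 and 3 UMIs (-1.60, -3.97 to 0.12), Slfn1 (-0.92, -2.22 to 0.20) and Dtx3l (-0.77, -1.59 to -0.02) were the lowest besides these with the label Pdcd1fl/fl. Stat2, Ifih1, Rtp4, Lgals3bp, Parp9 and Irgm1 changed sign with the scaling for Pdcd1fl/fl, and Slfn1, Ifi203 and Ifi213 for Pdcd1 cKO.

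Tumor T-class cells were compared with splenic cells in the same way. The sums were 1041 CPM in spleen and 1113 in tumor with the label Pdcd1fl/fl (0.10, 0.01 to 0.18) and 1365 and 1762 with the label Pdcd1 cKO (0.37, 0.33 to 0.41). Both signs rested on Ifi27l2a, without which they were -0.69 and -0.35. The median of ratios was -0.16 and -0.83. Relative to it the sums were at 0.26 and 1.20. At least 2-fold lower in the tumor were 14 of 27 members with the label Pdcd1fl/fl, against 40.9% of genes, and 21 of 40 with the other, against 43.5%. At least 2-fold higher were 3, against 16.6%, and 7, against 14.4%. Of 27 measured with both labels 7 were higher in the tumor with both, 17 lower with both and 3 opposite. Igtp, which had 0 UMIs in the spleen (below), is counted among the members higher and 2-fold higher with both labels. Most UMIs over spleen and tumor were of Ifi27l2a, Bst2, Epsti1, Zbp1, Trim30a, Isg15, Ifi47 and Phf11b (76.6%) with the label Pdcd1fl/fl and of Ifi27l2a, Bst2, Epsti1, Trim30a, Zbp1, Ifi203, Isg15 and Ifi47 (66.9%) with the other.

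Ifi27l2a rose from 55.0 to 501 CPM (3.19, 2.85 to 3.54) and from 72.4 to 751 CPM (3.38, 3.24 to 3.51), high in the tumor with both labels. Bst2 was at 85.5 and 225 (1.40, 1.12 to 1.69) and 105 and 288 CPM (1.46, 1.33 to 1.59), and Zbp1 at 26.1 and 48.5 (0.90, 0.37 to 1.45) and 36.3 and 111 (1.62, 1.41 to 1.83). Isg15 was at 25.3 and 39.6 CPM with the label Pdcd1fl/fl (0.64, 0.10 to 1.22) and Oas1a at 5.19 and 21.2 with the other (2.03, 1.49 to 2.61). The p200 genes were low in the tumor, with sums of 146 and 25.6 CPM (-2.51, -2.87 to -2.15) and 212 and 40.8 CPM (-2.38, -2.59 to -2.17). Ifi213 had the lowest ratio with both labels, at 30.4 and 2.16 (-3.82, -5.12 to -2.71) and 35.4 and 2.32 CPM (-3.93, -4.90 to -3.10). Ifi206 was at -2.54 and -2.67. Schlafen genes were lower too (-1.68, -2.59 to -0.78, and -2.34, -2.86 to -1.86), Slfn8 with 77 and 4 UMIs in the spleen and tumor labelled Pdcd1 cKO (-3.77, -5.68 to -2.35) and Slfn5 with 31 and 3 (-2.87, -5.22 to -1.19). So were IFIT genes (-2.36, -3.56 to -1.24, and -1.96, -2.45 to -1.51), Ifit3 with 128 and 12 UMIs (-2.91, -3.90 to -2.06). Samd9l (-3.75, -5.16 to -2.56), Ifi209 (-3.27, -4.45 to -2.23) and Trim30a (-2.59, -3.03 to -2.16) were among the lowest with the label Pdcd1fl/fl. With the label Pdcd1 cKO the signalling factors at -0.68 and the GTPases at -0.34 turned to 0.15 and 0.49 relative to the median of ratios. The GTPase sum holds Igtp, which had 0 UMIs in the spleen (below), so both GTPase values rest in part on that gene. A sum without Igtp was not taken.

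**Figure D4:**
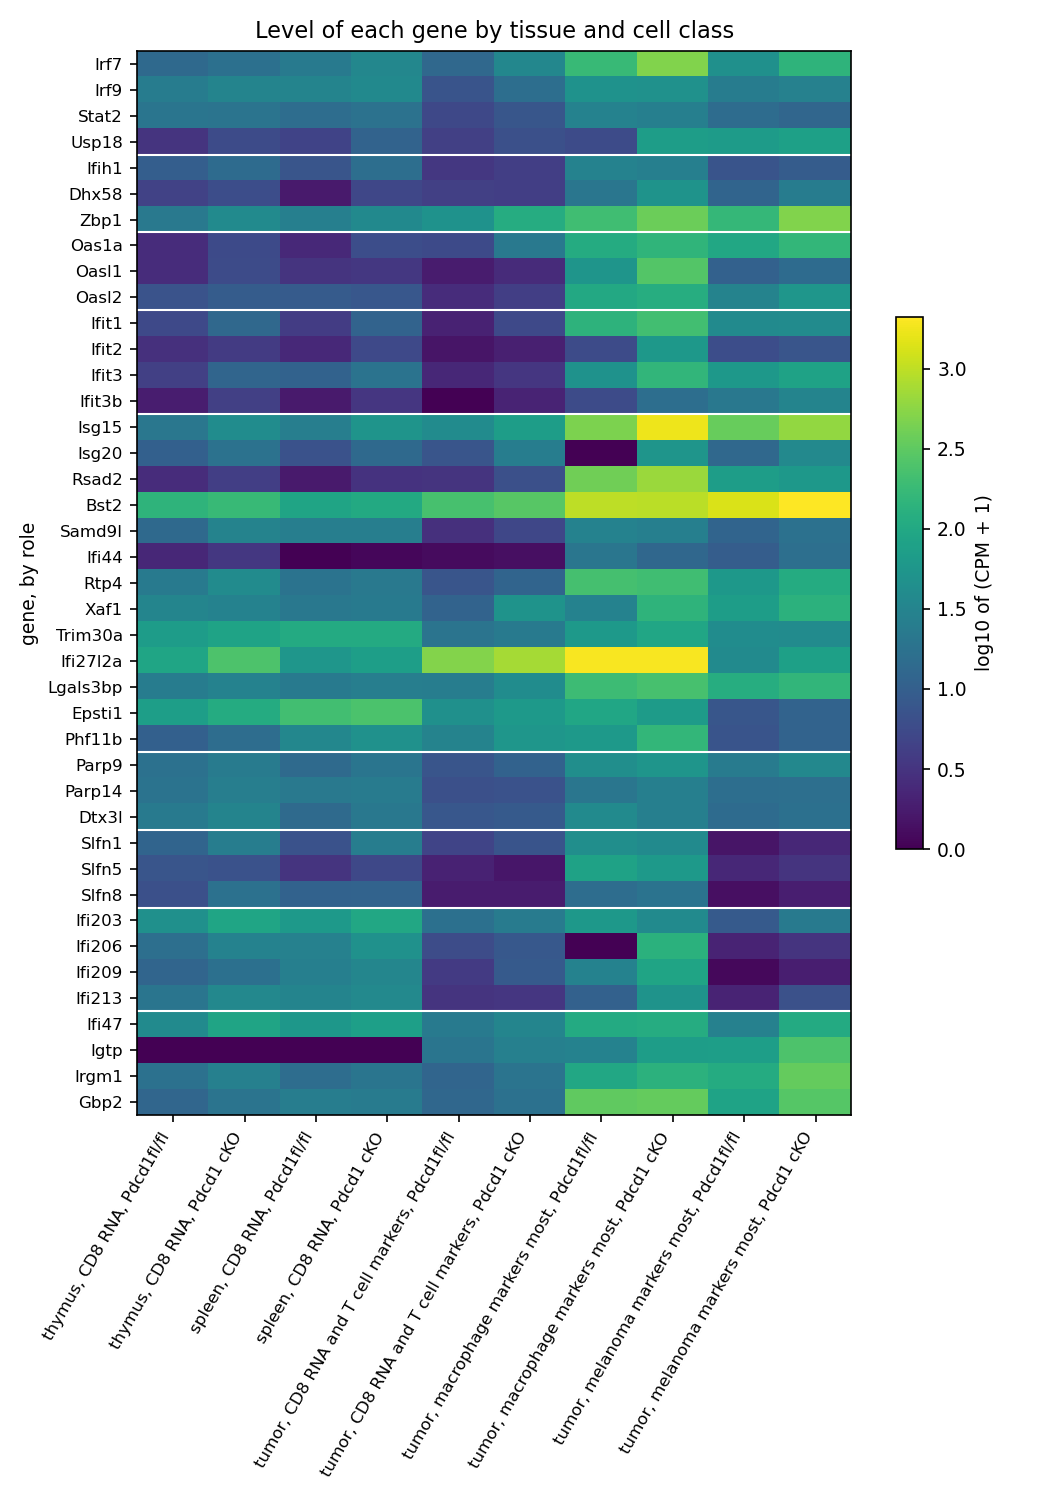
Level of each of the 41 members (y axis, grouped by role) as log10 of CPM plus 1 in thymic and splenic cells with CD8 RNA and in 3 tumor classes, by label (x axis). Bright cells are high: Ifi27l2a in tumor T-class cells (501 and 751 CPM), Bst2 in the melanoma class (1344 and 2103 CPM) and Ifi27l2a again in the macrophage class (1967 and 1934 CPM), while Igtp is at 0 in thymus and spleen.

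Igtp, a GTPase of the same family as Irgm1, was at 0 in thymus and spleen, with 0 of 40594895 UMIs over every barcode, and had 470 and 744 UMIs in the filtered tumor cells. In T-class cells with CD8 RNA it was at 18.3 and 26.9 CPM (0.55, 0.12 to 0.99), at least 8.44-fold and 65.6-fold higher than in the spleen, taking 3 UMIs in place of 0. The gene overlaps Irgm2 on the same strand. There were 7 genes with at least 1000 UMIs in the tumors and 0 in the other 4 libraries, namely Igtp, Ccl8, Tspan10, Gm50057, C1qa, Gsta1 and Cck. Whether reads of Igtp were assigned alike in the tumor libraries and the others was not tested.

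ISG UMIs were spread over many cells. Cells with CD8 RNA were each thinned to 1000 UMIs so that depth was equal, in the tumor for the T class alone. At least 1 ISG UMI was then found in 55.9% (51.7 to 59.9) and 71.4% (69.2 to 73.5) of thymic cells, 61.8% (58.4 to 65.0) and 71.1% (69.6 to 72.5) of splenic and 63.0% (57.1 to 68.8) and 71.6% (67.2 to 75.7) of tumor cells. Unthinned shares were 92.5% and 98.9%, 73.8% and 85.9%, and 100% and 100%. At least 3 ISG UMIs were in 11.7% and 25.0% of thymic, 10.1% and 16.9% of splenic and 14.1% and 27.1% of tumor cells. The share was higher with the label Pdcd1 cKO in each tissue. Of genes made by other cells, Igkc was in 0.170% and 1.03% of thymic and 6.60% and 38.6% of splenic cells and Pmel in 4.71% and 6.33% of tumor cells in the same thinned data, where free RNA and mixed cells cannot be told apart. Ifi27l2a was found in 10% and 21.4%, 5.68% and 6.82%, and 34.1% and 39.5% of cells after thinning (26.1% and 50.2%, 7.53% and 10.5%, and 76.4% and 80.3% before), which in the spleen is less often than Igkc. Isg15 was found in 1.87% and 4.91%, 2.20% and 4.5%, and 4.35% and 6.11% (9.85% and 17.3%, 3.01% and 7.39%, and 33.3% and 41.3% before), no more often than Igkc in the spleen and Pmel in the tumor.

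Members tended to be read in the same cells with the label Pdcd1 cKO, by less in the spleen and from few members in the tumor. For each member, thinned cells with at least 3 UMIs of other members were compared with cells with 0. In the thymic library labelled Pdcd1 cKO, 23 of 23 members with at least 20 UMIs were higher beside other ISG UMIs, 17 of them at least 2-fold, with a median log2 ratio of 1.40. Of 5457 genes outside the list, 42.6% were higher in cells with at least 3 ISG UMIs than in cells with 0, and 4.07% at least 2-fold. In the spleen with that label 26 of 28 were higher, 5 at least 2-fold, with a median of 0.41, beside 57.2% of 7170 genes higher and 215 of them 2-fold. The tumor with that label had 4 of 4 higher, 3 at least 2-fold, with a median of 1.48. Of 1203 genes there, 48.9% were higher and 2.24% at least 2-fold. With the label Pdcd1fl/fl few members reached 20 UMIs, and 4 of 5, 3 of 5, and 2 of 2 were higher in thymus, spleen and tumor, beside 43.9%, 48.3% and 50% of genes, too few members to read a direction from. Thymic cells of different stage were pooled here, and the part of stage in this was not tested.

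Other genes of the pathway, 33 in a list of ligands, receptors, kinases, factors, inhibitors and inducers, give the setting of the ISGs. With at least 20 UMIs, 25 were measured in the thymus, 24 in the spleen and 26 in the tumor, of which 2, 3 and 4 were at least 2-fold higher with the label Pdcd1 cKO and 0, 0 and 1 lower, beside the 8.75%, 9.18% and 6.78% of all genes that were 2-fold higher and the 5.33%, 2.83% and 11% that were 2-fold lower. Those counts are over all filtered cells. In T-class tumor cells with CD8 RNA, 0 of 25 measured were 2-fold higher and 2 were lower, beside 9.5% and 4.36% of all genes. Among the ligands and over all filtered cells, Ifng, for type II interferon, had 24 and 245 UMIs in the thymus (1.77, 1.16 to 2.44). In the spleen it had 14 and 975 (4.12, 3.36 to 4.99) and in the tumor 167 and 295 (1.06, 0.79 to 1.35). It was the highest ratio of the list in thymus and spleen. The type I and III ligands in the list, Ifnb1, Ifnk, Ifne, Ifnl2 and Ifnl3, had 0 UMIs in all 6 libraries. No Ifna gene was in the list, so type I ligands were counted only in part. Of the receptors, Ifngr1 was at 249 and 234, 206 and 252, and 81.0 and 152 CPM, nearly level in the thymus (-0.09, -0.17 to -0.01), and Ifngr2 fell in the spleen to the lowest ratio there (-0.53, -0.86 to -0.18). Il10rb, a subunit of the type III receptor, had 550 and 284 UMIs in the tumor. The kinase Jak1 was at 151 and 206 CPM in the thymus (0.45, 0.35 to 0.56) and 316 and 362 in the spleen (0.20, 0.08 to 0.32).

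Irf1, a factor induced by type II interferon, was at 93.1 and 156 (0.74, 0.62 to 0.87) and 167 and 278 CPM (0.74, 0.58 to 0.90) in thymus and spleen. Irf1 was thus higher with the label Pdcd1 cKO in both of these tissues. Stat3 was at 75.9 and 119, 99.1 and 128, and 110.3 and 127 CPM. Over all filtered tumor cells Irf8, prominent in myeloid cells, had the highest ratio of the list, 398 and 989 UMIs (1.56, 1.39 to 1.73). Socs3, an inhibitor of the kinases, had the lowest, 185 and 69 (-1.18, -1.60 to -0.77). In T-class cells with CD8 RNA Irf8 was not 2-fold higher, Rigi had the highest ratio and Socs3 again the lowest. In the spleen Socs3 was at 111 and 184 CPM (0.72, 0.53 to 0.92). Mavs, the adaptor of RNA sensors, had the lowest thymic ratio, 29 and 57 UMIs (-0.61, -1.28 to 0.09).

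Several families lie side by side in the genome (GRCm39, GENCODE vM39). The 4 IFIT genes lie within 104 kb at chr19:34527932-34632174, the 4 p200 genes within 474 kb at chr1:173296051-173770436, the 3 Schlafen genes within 171 kb at chr11:82842100-83013496, and Parp9, Dtx3l and Parp14 within 139.8 kb at chr16:35653231-35792980. The first 3 of these clusters are the families with the lowest tumor over spleen ratios. Isg15 (ENSMUSG00000035692) is at chr4:156283883-156285303 on the minus strand and Bst2 (ENSMUSG00000046718) at chr8:71986895-71990114 on the minus strand. Parp9 and Dtx3l overlap on opposite strands. Igtp with Irgm2, Irf9 with Rnf31, Ifi47 with Or2v1 and Rtp4 with Gm45338 overlap on the same strand.

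Promoter windows from 250 bases before to 50 after the canonical start were searched on both strands for 2 motifs. The letters GAAANNGAAA, the core of the interferon-stimulated response element, were in 23 of 41 member windows (56.1%), against 1212 of 31680 windows of all genes (3.83%), and 10 members had 2 or more matches. The letters TTCNNNGAA, bound by STAT dimers, were in 5 of 41 (12.2%), against 8.95%. The response element was therefore frequent among the members and the STAT motif near its share in all promoters. By role, it was in 3 of 3 sensors, 3 of 4 IFIT, 3 of 4 p200 and 3 of 4 GTPase windows, in 6 of 13 other effectors, and in 0 of 3 of the PARP and DTX3L group. A match is a description of letters and does not show that a factor binds.

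The windows below, of 300 bases each and read 5′ to 3′ on the strand of the gene, are of members with large or contrasting ratios, with every match to GAAANNGAAA or its reverse complement in capitals. Isg15 at chr4:156285254-156285553 (minus strand) holds 3 overlapping matches. Ifit3 at chr19:34560649-34560948 (plus strand) and Ifit3b at chr19:34585078-34585377 (plus strand), neighbours with the highest thymic ratios, each hold 2. Zbp1 at chr2:173060675-173060974 (minus strand), raised with the label Pdcd1 cKO in 3 tissues, holds 4. Usp18 at chr6:121222607-121222906 (plus strand) and Bst2 at chr8:71990065-71990364 (minus strand) hold 2 each. Members with 0 matches are not shown, among them Ifi27l2a, Oasl1, Ifi209 and Xaf1, which also had large ratios in some comparisons.
Isg15: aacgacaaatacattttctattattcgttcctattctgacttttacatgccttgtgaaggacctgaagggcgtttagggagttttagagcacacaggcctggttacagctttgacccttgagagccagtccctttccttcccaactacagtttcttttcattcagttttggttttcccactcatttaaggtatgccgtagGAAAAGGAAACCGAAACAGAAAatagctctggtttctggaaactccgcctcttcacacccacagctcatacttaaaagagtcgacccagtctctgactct
Ifit3: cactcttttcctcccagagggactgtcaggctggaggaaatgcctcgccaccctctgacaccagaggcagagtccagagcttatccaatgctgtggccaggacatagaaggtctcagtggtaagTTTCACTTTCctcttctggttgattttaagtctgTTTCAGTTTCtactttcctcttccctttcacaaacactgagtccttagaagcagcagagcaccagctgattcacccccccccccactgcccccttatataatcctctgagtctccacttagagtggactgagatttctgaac
Ifit3b: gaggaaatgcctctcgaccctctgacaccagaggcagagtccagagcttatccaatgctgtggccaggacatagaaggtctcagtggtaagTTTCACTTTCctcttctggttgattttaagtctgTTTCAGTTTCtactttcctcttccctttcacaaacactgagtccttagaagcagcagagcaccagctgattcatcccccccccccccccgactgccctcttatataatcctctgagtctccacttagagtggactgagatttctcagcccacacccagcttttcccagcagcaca
Zbp1: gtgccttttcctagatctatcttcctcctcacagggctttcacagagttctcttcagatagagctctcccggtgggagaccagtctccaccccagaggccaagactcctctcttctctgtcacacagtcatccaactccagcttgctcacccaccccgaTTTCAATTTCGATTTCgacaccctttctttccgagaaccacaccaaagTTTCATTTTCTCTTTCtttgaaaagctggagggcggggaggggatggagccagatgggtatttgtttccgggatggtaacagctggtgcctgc
Usp18: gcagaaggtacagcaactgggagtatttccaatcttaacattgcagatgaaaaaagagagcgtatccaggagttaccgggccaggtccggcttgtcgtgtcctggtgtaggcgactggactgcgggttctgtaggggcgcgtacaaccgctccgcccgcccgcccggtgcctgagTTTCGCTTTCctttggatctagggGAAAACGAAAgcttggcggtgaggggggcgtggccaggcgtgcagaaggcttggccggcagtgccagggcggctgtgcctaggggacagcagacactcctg
Bst2: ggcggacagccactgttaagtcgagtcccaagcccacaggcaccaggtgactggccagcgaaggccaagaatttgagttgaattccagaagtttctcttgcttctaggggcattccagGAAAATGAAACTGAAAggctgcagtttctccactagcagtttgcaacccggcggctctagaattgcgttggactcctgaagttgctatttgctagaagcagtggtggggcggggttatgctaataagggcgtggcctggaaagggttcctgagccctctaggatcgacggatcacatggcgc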

How the data were processed

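The deposited matrices hold raw UMI counts per gene and barcode, made by the authors with the PIPseq pipeline v3.2 against GRCm39. Cells under 500 genes or 1000 UMIs or over 20% mitochondrial UMIs were left out, following the authors, whose normalization with Seurat 4.3.0 was not used. Genes were aligned by Ensembl identifier, as the tumor files order them differently. UMIs were pooled per library and cell set and divided by total UMIs, with Python 3.11.15, numpy 2.4.6, scipy 1.17.1, pandas 2.3.3 and matplotlib 3.10.9. Ratios took members with at least 20 UMIs in both libraries together, a 2-fold threshold and a floor of 3 counts. The text names, per comparison, the 8 members with most UMIs and the 5 highest and 5 lowest ratios, and of other pathway genes the 5 with most UMIs and the highest and lowest ratio; other members were named after their values were seen. Some items that the rule covers are not reported here. Thinning drew 1000 UMIs per cell. The members and lists were chosen with earlier results of these data known. Alternatives varied filter, cells, scaling, weights and members. The interval calculations were tested on simulated library totals drawn as Poisson counts, the model the intervals assume. That simulation held no cells, so it does not cover UMIs that cluster in cells.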

Additional observations from a re-analysis of the deposited data

Results flagged for a closer look

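Members with an interval above 0 in at least 1 tissue and below 0 in another are listed here, with the library labelled Pdcd1 cKO over the other, and the difference between tissues was not tested. Usp18 had log2 ratios of 0.96 for thymus and 1.98 for spleen but -0.45 over all filtered tumor cells, while in T-class cells with CD8 RNA it was at 0.74 (-0.28 to 1.85) and in the melanoma class at 66.4 and 75.2 CPM. Bst2 was at 0.27 (thymus), 0.43 (spleen) and -0.05 (tumor), but its tumor sign turned with the scaling, and it was higher with the label Pdcd1 cKO in T-class cells with CD8 RNA (225 and 288 CPM) and in the melanoma class (1344 and 2103 CPM), whose share of tumor UMIs was 56.6% and 28.8%. Xaf1 was at 0.82 in the tumor and -0.39 in the thymus, where in cells with CD8 RNA it was at -0.13 (-0.43 to 0.19), a sign that changed with the scaling.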

How the results depend on the processing

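Of 54 alternatives for the summed ISG log2 ratios, 50 kept the sign, and 30 of all 72 stayed within the counting interval or within 1.5 times the count. Values that moved further follow, and the cause was not tested. With the median of ratios at 0, the ratios by label were 0.78 in the thymus (0.71 as reported), 0.22 in the spleen (0.39) and 0.69 in the tumor (0.46), mature over immature 1.61 and 1.72 (1.44 and 1.48, Pdcd1fl/fl first), spleen over thymus 0.72 for Pdcd1fl/fl (0.29), and tumor over spleen 0.26 and 1.20 (0.10 and 0.37). Without ribosomal, mitochondrial and Malat1 UMIs in the total they were 0.89 in the thymus, 0.25 in the spleen, 1.66 for mature over immature with the label Pdcd1 cKO, 0.49 and -0.19 for spleen over thymus (-0.05 as reported for Pdcd1 cKO) and 0.20 and 0.48 for tumor over spleen. Without the member with most UMIs they were 0.80 in the thymus, 0.70 in the tumor, 1.73 and 1.72 for mature over immature, 0.44 and, reversed, 0.15 for spleen over thymus, and, both reversed, -0.69 and -0.35 for tumor over spleen. With equal weight per cell they were 0.76 in the thymus, 0.41 in the tumor, and 1.26 and 1.04 for mature over immature. Without the deepest 5% of cells they were 0.84 in the thymus, 0.34 in the tumor and 1.19 for mature over immature with the label Pdcd1 cKO. Thinned classes gave 1.03 and 1.04. In all filtered cells spleen over thymus was 0.45 and, reversed, 0.14, and tumor over spleen 1.18 and 1.25. The tumor ratio was 0.57 in cells with CD8 RNA and 0.66 in T-class cells with CD8 RNA. Weighting thymic classes by their UMIs in the library labelled Pdcd1fl/fl, chosen after seeing the data, gave 0.54. Members 2-fold higher numbered 7 in place of 12 in the thymus and 5 in place of 8 in the spleen with a minimum of 100 UMIs, where fewer members were measured, and 18 in place of 11 in the tumor with the median of ratios at 0.

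Depth limits single members. IFIT and OAS genes rest on few UMIs in the thymic and splenic libraries labelled Pdcd1fl/fl, and Schlafen genes in both tumor libraries and the spleen labelled Pdcd1fl/fl. With 1 library per group, label, mouse, preparation and mix of cells cannot be told apart, and free RNA was not removed. Pdcd1 RNA went against the labels in thymus and spleen, and was higher with the label Pdcd1 cKO over all filtered tumor cells.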
